A study of Homo sapiens with 2 samples.

Results

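The genes described here are 9 genes of the FOXO and insulin pathway: FOXO1, FOXO3, INSR, IRS1, IRS2, TXNIP, ARRDC4, PDK4 and CCNG2. Every probe set that the platform annotation gives to 1 of these genes and to no other gene was taken, which found 29 of the 54675 probe sets on the array. The study measured total RNA of CL1-0, a human lung adenocarcinoma line in wide use, on 2 Affymetrix arrays. The 6 h array holds cells exposed to an antibody against FSTL1, a secreted glycoprotein of the follistatin family, for 6 h, and the 0 h array holds cells labelled with the same antibody at 0 h. Per the labels, the cells on both arrays were stably transduced and kept under puromycin for selection. No vector or insert is named, so what was introduced is unknown here. Each group has 1 array, so no difference has a replicate check or a test, and the number of arrays limits the precision. Cells kept for 6 h without the antibody were not analysed here, so its effect and that of time or handling cannot be told apart.

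Insulin and insulin-like growth factors bind receptor tyrosine kinases, which phosphorylate the adaptors IRS1 and IRS2 and so switch on PI3K and the kinase AKT. AKT phosphorylates FOXO transcription factors, which then leave the nucleus. When AKT activity is low, FOXO proteins return to the nucleus and can switch on genes that restrain growth, spare glucose and raise insulin sensitivity. INSR, IRS2, PDK4 and CCNG2 are known FOXO targets, FOXO factors also raise transcription of FOXO1 and FOXO3, and TXNIP has been described as a FOXO target in some cells. TXNIP and ARRDC4 are best known as targets of the glucose-sensing factor MondoA, which binds their promoters when intracellular glucose phosphates are plentiful. The question for these genes was whether the 6 h array differed from the 0 h array in the direction known for lower AKT activity or altered glucose signalling. Transcript levels do not measure AKT activity or the location of FOXO proteins.

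Promoter sequences from RefSeq (GRCh38.p14) were searched over the 250 bases before each annotated start, where 13 promoters of all 9 genes were found among 35116 promoters. Motifs were read on both strands. The E-box CACGTG, the core of MondoA and MYC family sites, was present in 6.34% of all promoters and in those of ARRDC4 and CCNG2. The forkhead letters GTAAACA were present in 2.98% of all promoters and in that of TXNIP. A pair of CACGTG boxes with 5 bases between them, the carbohydrate response element in its strict form, was in 1 promoter of all and in none of the 9 genes. Another 3 motifs were added after these matches were seen. A looser pair, CACGNG with the same spacing, was in 16 promoters of all (0.0456%), that of TXNIP among them. The forkhead core TAAACA, which lies within GTAAACA, was in 11.0% and in promoters of TXNIP and FOXO3, and the insulin response letters CAAAACA were in 4.30% and in that of IRS2. The matches are printed here because they mark which of the genes carry these letters close to the start. They are in capitals (in IRS2 the match is to the reverse strand of CAAAACA). A match is a description of the letters and not a bound site.

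TXNIP (chr1:145996641-145996713, minus strand): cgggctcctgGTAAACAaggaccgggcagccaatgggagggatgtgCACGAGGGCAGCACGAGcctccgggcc
ARRDC4 (chr15:97960473-97960518, plus strand): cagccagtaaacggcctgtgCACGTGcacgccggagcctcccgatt
CCNG2 (chr4:77157157-77157202, plus strand): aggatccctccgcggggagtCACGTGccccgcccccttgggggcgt
IRS2 (chr13:109786597-109786643, minus strand): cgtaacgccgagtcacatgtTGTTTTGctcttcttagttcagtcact
FOXO3 (chr6:108560667-108560706, plus strand): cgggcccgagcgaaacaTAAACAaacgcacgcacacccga

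In TXNIP the forkhead letters began 124 bases before the start and the pair of CACGNG boxes 88 bases before it. The E-box of ARRDC4 began 210 bases before its start and that of CCNG2 began 30 bases before its start.

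The deposited value of a probe set is an intensity on a linear scale. The arrays had median intensities of 44.9 (6 h) and 45.8 (0 h), and whether the arrays were scaled to each other is not stated. Values under 45.4, the median of both arrays pooled, were set to that floor as an assumed background. A probe set was called measured when it passed the floor on at least 1 array. Differences are log2 intensity at 6 h minus log2 intensity at 0 h, and a gene is represented by its brightest probe set. Of the 29 probe sets, 21 were measured, 20 of them on both arrays, and the other 8 did not reach the floor on either array and so have no direction. PDK4 was the 1 gene with no measured probe set.

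**Figure D1:**
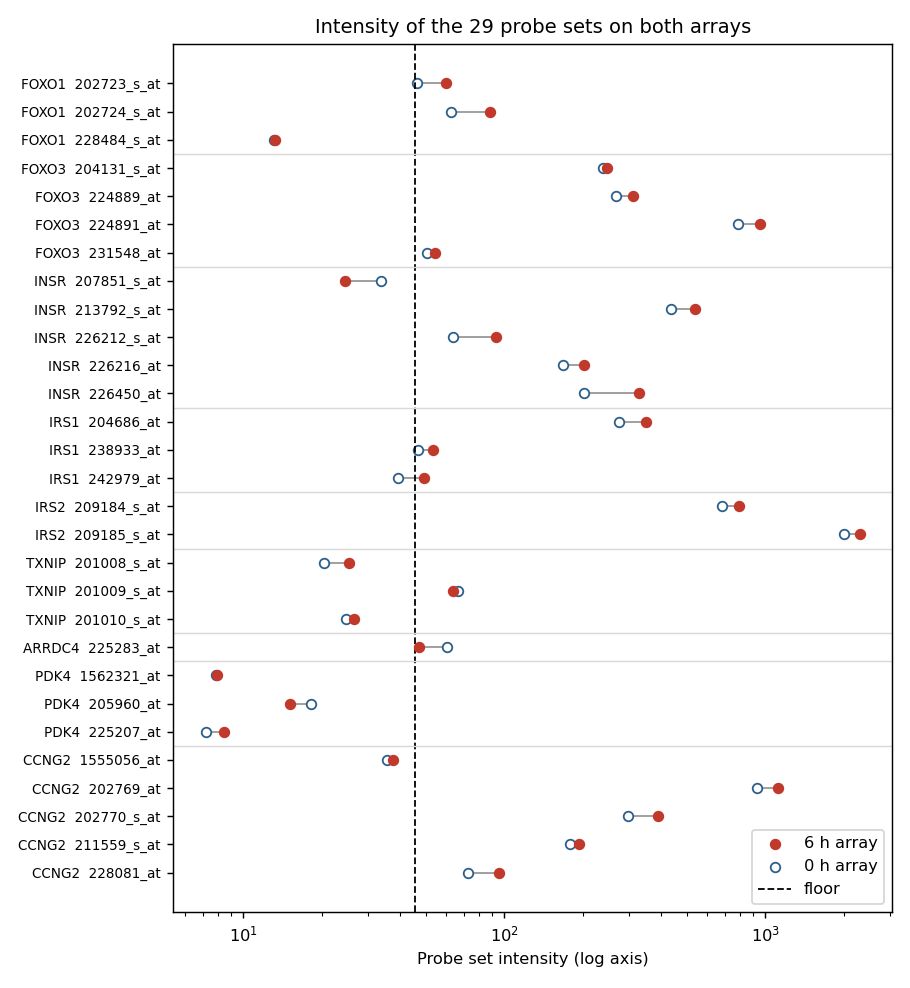
Intensity of each of the 29 probe sets (log axis) on the 6 h array (filled red) and the 0 h array (open blue), grouped by gene, with the floor of 45.4 as a dashed line. The measured sets of FOXO1, FOXO3, INSR, IRS1, IRS2 and CCNG2 lie to the right at 6 h, those of TXNIP and ARRDC4 lie to the left, and all PDK4 sets lie below the floor.

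The receptor, its adaptors, both FOXO factors and cyclin G2 had higher intensity at 6 h, while the glucose-responsive arrestin ARRDC4 had lower intensity. TXNIP was slightly lower on its 1 measured set, with no settled direction. Of the 21 measured probe sets 19 were higher and 2 were lower, where 54.9% of all 28239 measured probe sets were higher. The 19 include the IRS1 set 242979_at, which passed the floor at 6 h alone and so could only count as higher. By the brightest probe set 6 of 8 measured genes were higher, where 54.3% of all 12669 measured genes were. Their median log2 difference was 0.28, against 0.02 over all measured genes, whose SD was 0.19. Most of these differences were small, and the genes were chosen with earlier results of these data known. In bulk RNA, fewer cells that express a gene and less of its RNA per cell cannot be told apart. A single probe set, for INSR, was at least 1.5-fold higher (0.804% of all measured probe sets) and 0 were at least 1.5-fold lower (0.198% of all). On their brightest sets 0 of the 8 genes were 1.5-fold apart, where 0.75% of all genes had passed 1.5-fold upwards and 0.182% downwards.

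**Figure D2:**
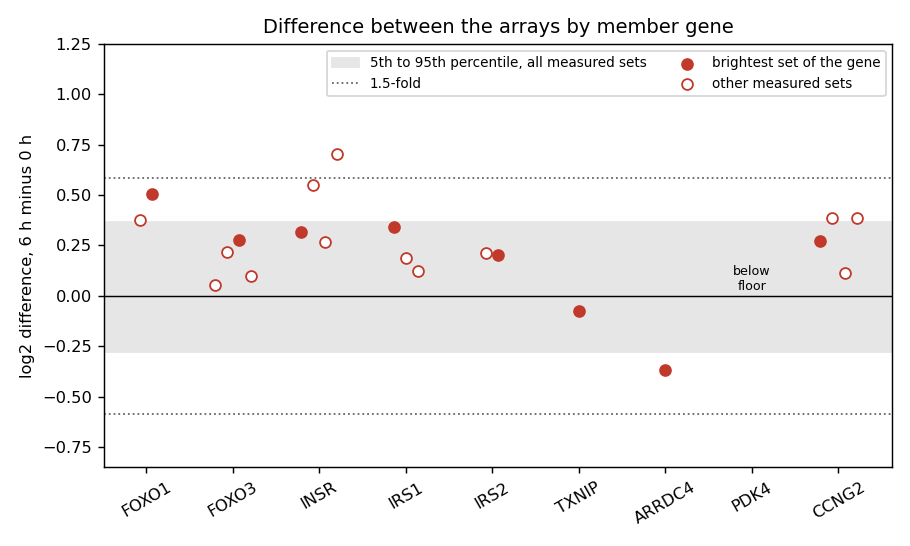
The log2 difference (6 h minus 0 h) of each measured probe set, by gene, with the brightest set filled, the 5th to 95th percentile of all measured probe sets as a grey band (-0.28 to 0.37) and 1.5-fold as dotted lines. All 19 sets of 6 genes lie above 0, the single sets of TXNIP and ARRDC4 lie below it, and PDK4 has no measured set.

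INSR encodes the insulin receptor, the receptor tyrosine kinase at the head of the pathway. Its probe set 226450_at had an intensity of 329.8 at 6 h, against 202.8 at 0 h, a 1.63-fold higher value and a log2 difference of 0.70. Among all measured probe sets 0.375% were at least as far above 0. The set 226212_s_at was at 93.4 at 6 h and 63.8 at 0 h, a log2 difference of 0.55. The brightest set, 213792_s_at, was at 539.8 at 6 h and 434.1 at 0 h, a log2 difference of 0.31, and 226216_at was at 202.4 at 6 h and 168.0 at 0 h, a difference of 0.27. The 4 measured sets were therefore all higher at 6 h, but by sizes between 0.27 and 0.70. Their SD of 0.20 is above the pooled SD of 0.16 between probe sets of the same gene over 6122 genes. The remaining INSR set, 207851_s_at, went the other way below the floor, at 24.6 at 6 h and 33.7 at 0 h. With the floor at the 40th percentile, an intensity of 30.4, its 6 h value was still under the floor, which bounds the log2 difference at -0.15 or lower. With no floor and log2(value + 16) it was at -0.29.

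IRS1 and IRS2 encode the docking proteins that carry the signal from the insulin and IGF receptors to PI3K. IRS1 was at 349.3 at 6 h and 276.0 at 0 h on 204686_at, a log2 difference of 0.34. Its 238933_at was close to the floor on both arrays, at 53.6 at 6 h and 47.0 at 0 h. The third IRS1 set, 242979_at, passed the floor at 6 h alone (49.4 at 6 h and 39.3 at 0 h) and so has only a bound, at least 1.09-fold higher. IRS2 is the adaptor whose gene FOXO factors are known to raise in liver. Its 209185_s_at was at 2304 at 6 h and 2000 at 0 h, and 209184_s_at was at 793.9 at 6 h and 685.1 at 0 h. The 2 IRS2 sets gave nearly the same log2 difference, 0.20 and 0.21, far closer to each other than the pooled SD between sets. Differences of that size are common, since 17.2% of all measured probe sets were at least as high as the IRS2 set at 0.20.

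FOXO1 and FOXO3 are the forkhead factors that AKT keeps out of the nucleus. FOXO1 was near or below the floor on every set. Its 202724_s_at was at 88.6 at 6 h and 62.5 at 0 h, a log2 difference of 0.50, and 202723_s_at was at 60.1 at 6 h and 46.2 at 0 h, a difference of 0.38. Both were higher at 6 h, and the third set, 228484_s_at, was below the floor at 13.2 at 6 h and 13.1 at 0 h. With the floor at the 60th percentile, an intensity of 72.5, the FOXO1 difference was 0.29, because its 0 h value then lies under the floor and the value is a bound. In the main setting 1.67% of all measured probe sets were at least as high as the FOXO1 set at 0.50.

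FOXO3 had smaller differences, all above 0. Its brightest set, 224891_at, was at 956.8 at 6 h and 789.3 at 0 h, a log2 difference of 0.28, and 224889_at was at 311.1 at 6 h and 267.8 at 0 h, a difference of 0.22. The sets 231548_at (54.3 at 6 h and 50.7 at 0 h) and 204131_s_at (248.8 at 6 h and 239.3 at 0 h) differed by 0.10 and 0.06. Quantile normalization brought 204131_s_at to just below 0. A further 3 probe sets were left out because the annotation gives them to FOXO3 and its near-identical copy FOXO3B together. Of these, 204132_s_at differed by 0.27 and 210655_s_at by 0.12, and 217399_s_at, which passed the floor at 0 h alone, was lower by at least 0.10 on the log2 scale. The 4 FOXO3 sets may also read FOXO3B, which their annotation does not settle.

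CCNG2 encodes cyclin G2, an unusual cyclin that restrains cell division and is a known FOXO target. Its brightest set, 202769_at, was at 1122 at 6 h and 929.1 at 0 h, a log2 difference of 0.27. The sets 202770_s_at (390.3 at 6 h and 298.2 at 0 h) and 228081_at (95.3 at 6 h and 72.8 at 0 h) both differed by 0.39, and 211559_s_at (192.9 at 6 h and 178.2 at 0 h) by 0.11. All 4 were higher at 6 h, spread by an SD of 0.13, and its other set, 1555056_at, lay below the floor at 37.4 at 6 h and 35.7 at 0 h. CCNG2 therefore resembled FOXO3 and INSR in having 4 measured sets with 1 direction.

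PDK4 encodes pyruvate dehydrogenase kinase 4, which holds carbon back from the citric acid cycle in fasting muscle and liver and is among the best known FOXO targets. Its 3 probe sets were at 15.1, 8.42 and 7.95 at 6 h and at 18.2, 7.20 and 7.87 at 0 h, in the order 205960_at, 225207_at and 1562321_at. All lay at 0.401 of the floor or less, so PDK4 was not measurable here and has no direction.

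TXNIP encodes thioredoxin-interacting protein, an arrestin that binds thioredoxin and lowers glucose uptake, and ARRDC4 encodes a related arrestin. The 1 measured TXNIP set, 201009_s_at, was at 63.5 at 6 h and 66.9 at 0 h, a log2 difference of -0.07, and 28.3% of all measured probe sets were at least as low. The other TXNIP sets lay below the floor and were nominally higher, with 201008_s_at at 25.6 at 6 h and 20.5 at 0 h, and 201010_s_at at 26.7 at 6 h and 24.7 at 0 h. Its direction is thus not settled. ARRDC4 has a single probe set, 225283_at, at 47.0 at 6 h and 60.6 at 0 h. Its log2 difference was -0.37, and 2.16% of all measured probe sets were at least as low. Both values lie close to the floor, and at the 60th percentile floor neither arrestin was measured.

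In the main setting, direction was shared among the measured sets of a gene. All 6 genes with 2 or more measured sets had every set higher, where 30.4% of 6122 such genes did. The IRS1 set 242979_at passed the floor at 6 h alone, so it could only count as higher. For INSR, FOXO3 and CCNG2, each with 4 measured sets, the same held for 3 of 3, where 22.3% of 674 genes with 4 measured sets had all of them higher. Probe sets of a gene share the RNA and the array and are not replicates. Over the 6 genes the pooled SD between sets was 0.14. FOXO1, FOXO3, INSR, IRS2, PDK4 and CCNG2 are known to rise with lower AKT activity, and TXNIP was added as a FOXO target described in some cells. Among these, 6 were measured and 5 were higher by the brightest set, where 54.3% of all measured genes were. The sixth was TXNIP, whose sets did not settle a direction. The members were chosen with earlier results of these data known, so the counts are a description and not a test of AKT activity.

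All measured sets were divided by brightness into dim, middle and bright groups of 9413. Among the dim sets 7 of 9 member sets were higher, where 47.7% of all dim sets were. The 7 include the IRS1 set 242979_at, which passed the floor at 6 h alone. Among the middle sets 7 of 7 were higher (58.7% of all), and among the bright sets 5 of 5 were (58.3% of all). The scatter of all sets was wider for dim sets, with an SD of 0.22, than for bright sets, at 0.16.

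**Figure D3:**
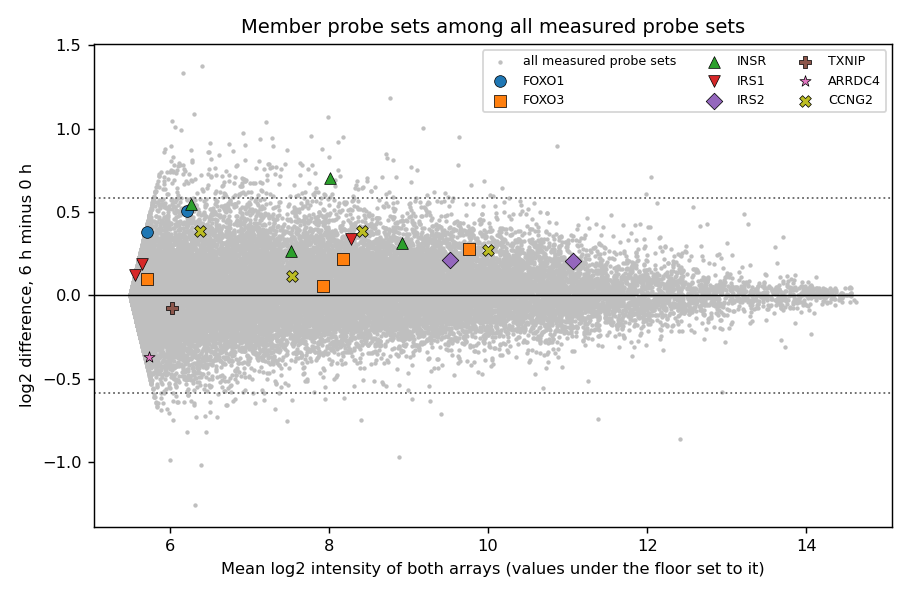
The log2 difference (6 h minus 0 h) against the mean log2 intensity for all 28239 measured probe sets (grey) and the 21 measured member sets (symbols by gene), with 1.5-fold as dotted lines. The member sets lie inside the grey cloud at all brightness levels, and 1 INSR set lies above the upper dotted line.

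Other genes of the pathway were compared by 6 lists. Of all measured genes 54.3% were higher, 0.75% at least 1.5-fold higher and 0.182% at least 1.5-fold lower, and each list count is to be read beside these shares. Of 17 measured insulin and IGF receptors, ligands and adaptors 13 were higher, with a median of 0.10 and 0 genes 1.5-fold apart on their brightest sets. IGFBP4 and IGFBP6 passed the floor at 6 h alone and so could only count as higher. IGFBP5 and SOCS1 passed it at 0 h alone and could only count as lower (IGFBP4, IGFBP6 and SOCS1 named after their values were seen). The adaptor GRB10 counted as higher at 0.10, but its 3 measured sets ran between -0.70 and 0.23 (named after its values were seen). The IGF1 receptor IGF1R was at 498.2 at 6 h and 378.2 at 0 h, but its 3 measured sets ran between -0.14 and 0.40. IGF2R, which carries IGF2 to lysosomes, was at 1008 at 6 h and 810.2 at 0 h, with 3 sets between 0.17 and 0.32. The IGF-binding protein IGFBP7 was lower, at 110.6 at 6 h and 144.2 at 0 h, and IGFBP5 fell under the floor at 6 h (38.3 at 6 h and 57.2 at 0 h), at least 1.26-fold lower.

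PI3K, AKT and mTOR components had a median of 0.09, with 19 of 28 measured genes higher and 9 lower. The mTORC1 inhibitor DDIT4 was the 1 gene past 1.5-fold, at 1439 at 6 h and 922.5 at 0 h. TRIB3, a pseudokinase described as an AKT inhibitor, was at 1022 at 6 h and 700.0 at 0 h, a log2 difference of 0.55, and its 2 sets were both higher. The ribosomal S6 kinase gene RPS6KB1 was at 0.33 with sets between -0.06 and 0.33. The PI3K regulatory subunit PIK3R3 was lower by both sets, at 534.8 at 6 h and 675.1 at 0 h on the brightest. The 2 sets of the AKT substrate GSK3A disagreed, at -0.33 and 0.33. AKT1 and AKT2 differed by 0.05 and 0.15 (named after their values were seen).

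Other FOXO targets had the highest median of the 6 lists, 0.19, with 19 of 26 measured genes higher, 6 lower and 1 at the same value. Genes past 1.5-fold numbered 2, the transcriptional repressor BCL6 (658.9 at 6 h and 289.8 at 0 h) and the stress sensor SESN2 (403.1 at 6 h and 208.7 at 0 h). Both sets of SESN2 were at 0.95, while those of BCL6 were at 1.19 and 0.40. The stress-induced GADD45A was at 774.3 at 6 h and 581.2 at 0 h, and YPEL3, which is linked to growth arrest, at 107.8 at 6 h and 82.9 at 0 h. GABARAPL1, an autophagy protein with a near-identical copy that its probes may also read, was at 366.7 at 6 h and 275.9 at 0 h. KLF15, a factor of fasting metabolism, was lower on both sets, at 71.9 at 6 h and 95.7 at 0 h. SESN2, DDIT4 and TRIB3 are also known targets of the stress factor ATF4, and GADD45A of p53, so that these genes do not report on FOXO alone. A further 11 FOXO targets on the array lay below the floor, among them the classic liver and muscle targets G6PC1, PCK1, IGFBP1, FBXO32 and TRIM63 (named after their values were seen).

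MondoA and glucose-sensing genes were mixed, with 13 of 20 measured genes higher, 7 lower and a median of 0.06. The glucose transporter SLC2A12 passed the floor at 6 h alone (74.6 at 6 h and 39.2 at 0 h), at least 1.64-fold higher, and could only count as higher. GCKR and GPD1 passed it at 0 h alone and could only count as lower (both named after their values were seen). The signalling regulator RGS16 was lower (90.8 at 6 h and 127.9 at 0 h), its 2 sets at -0.49 and -0.06. MLXIPL, which encodes the MondoA relative ChREBP, was at 96.8 at 6 h and 77.4 at 0 h. The transporter SLC2A6 was at 474.9 at 6 h and 392.7 at 0 h, and the fructose-pathway enzyme TKFC was lower, at 74.1 at 6 h and 89.5 at 0 h. MLXIP, which encodes MondoA itself, had sets at -0.07 and 0.06. Its partner MLX was at 0.16, but its 6 measured sets ran between -0.08 and 0.16 (both named after their values were seen).

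Among relatives of the 9 genes 13 of 16 were higher, with a median of 0.06 and 0 genes past 1.5-fold. The arrestin ARRDC3, close kin of TXNIP and ARRDC4, was lower on its single set, at 396.3 at 6 h and 538.5 at 0 h, a log2 difference of -0.44. PDK3 was at 655.9 at 6 h and 541.8 at 0 h, with 4 sets between -0.01 and 0.28. PDK2 was at 214.1 at 6 h and 193.4 at 0 h, and the opposing phosphatase PDP1 at 552.3 at 6 h and 478.6 at 0 h. ARRDC2 was at 0.13 and ARRDC1 at 0.01 (both named after their values were seen). FOXO partners and regulators had a median of 0.10, with 12 of 16 higher. The 12 include FOXO4, which passed the floor at 6 h alone and so could only count as higher (named after its values were seen). The coactivators EP300 (1104 at 6 h and 860.9 at 0 h) and CREBBP (1200 at 6 h and 998.9 at 0 h), the deacetylase SIRT1 (846.9 at 6 h and 679.2 at 0 h) and the forkhead factor FOXK2 (781.2 at 6 h and 662.2 at 0 h) led them by the brightest set. The 6 measured sets of FOXK2 ran between -0.07 and 0.30.

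**Figure D4:**
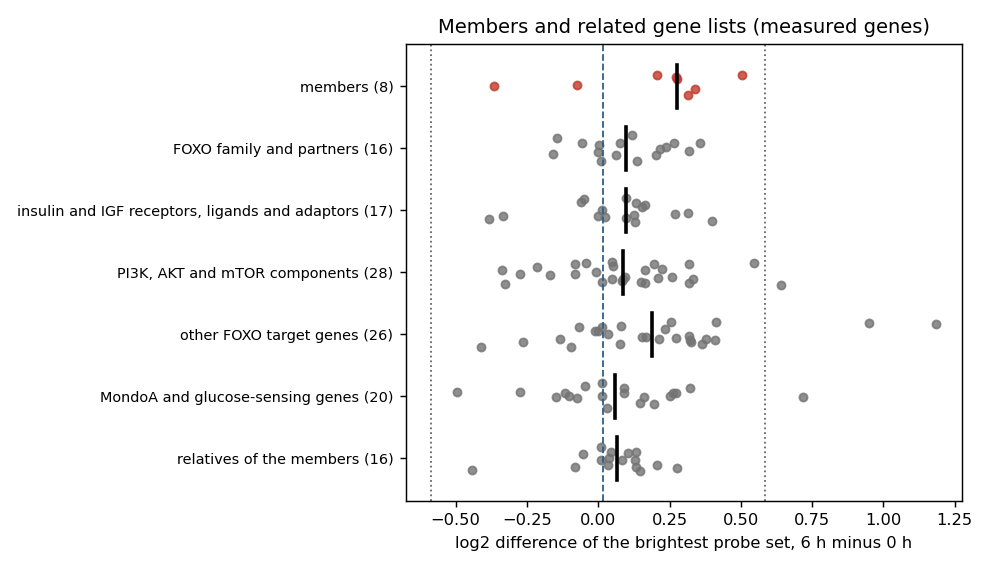
The log2 difference (6 h minus 0 h) of the brightest probe set of each measured gene, by list with the number measured, with the list median as a black bar, the median of all genes (0.02) as a dashed line and 1.5-fold as dotted lines. The 9 chosen genes have a median of 0.28 over 8 measured, and the other lists have medians between 0.06 and 0.19.

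The labels call the cells type II alveolar. Of 12 alveolar marker genes with a probe set of their own 7 were measured. SFTPD, LAMP3 and SLC34A2 lay below the floor on both arrays, as did HOPX and AGER, which are better known from type I cells. By their brightest sets 5 of the 7 were higher at 6 h and 2 lower, where 54.3% of all measured genes were higher. Their median log2 difference was 0.26, close to that of the 9 genes and above that of each of the 6 pathway lists. Measured sets of 1 marker could disagree: those of SFTPB ran between -0.39 and 0.35, of NKX2-1 between -0.18 and 0.28, and of SFTPC between -0.30 and 0.02. ETV5, an ETS factor, was the 1 marker past 1.5-fold, at 381.5 at 6 h and 202.1 at 0 h, with 4 sets between 0.14 and 0.92. Summed intensities were 2017 at 6 h and 2014 at 0 h, and the sum rests mostly on LPCAT1, a surfactant lipid enzyme, which was lower at 1073 at 6 h and 1314 at 0 h. Epithelial markers were measured for 2 of 6 genes, summing to 173.3 at 6 h and 196.3 at 0 h, and EPCAM and CDH1 were below the floor. Markers of fibroblasts were measured for 2 of 6 genes (220.5 at 6 h and 280.6 at 0 h), of leukocytes for 1 of 5 (118.0 at 6 h and 135.5 at 0 h) and of endothelium for 1 of 6 (54.5 at 6 h and 73.5 at 0 h). The fibroblast sum rests mostly on the brightest set of COL1A1, whose 2 measured sets disagreed, at -0.36 and 0.94. COL1A2, COL3A1, PTPRC, CD3E, CDH5 and VWF were below the floor on both arrays. The part of these cell types in the differences of the 9 genes was not tested.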

How the data were processed

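Per the labels' protocols, total RNA was column-purified and made into biotin-labelled cRNA. The authors deposited 1 intensity per probe set and array, linear by its range, with no log or centring apparent. Summarisation used MAS5 (per the submitters' processing notes). Its version, parameters and scaling are not given in the sources used here. The method subtracts background and mismatch signal, so dim values are noisy.

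Of 54675 probe sets 41097 had 1 gene, 1801 several and 11777 none, and 41043 of the first were matched to RefSeq by Entrez identifier for current symbols. The floor was the 50th percentile of both arrays pooled. No test was run. Counts at 1.5-fold are set beside those over all measured probe sets or genes. Python 3.11.15, numpy 2.4.6, pandas 2.3.3, statsmodels 0.14.6 and matplotlib 3.10.9 were used, and the steps were tested on simulated data.

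The members and lists were chosen with earlier results of these data known. All members are named. Of each other pathway list, genes past 1.5-fold and up to 4 more with the largest differences are named, and others are said to be named afterwards. Alternatives were floors at the 40th and 60th percentile, no floor with log2(value + 16), median centring, quantile normalization, a loess curve (span 0.3), the median of a gene's sets, and leaving out _x_at and _s_at sets.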

Additional observations from a re-analysis of the deposited data

How the results depend on the processing

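Under the 8 alternatives the member median log2 difference lay between 0.20 and 0.28 and stayed above 0, while that of all genes lay between -0.01 and 0.02. By the brightest set, or by the median of a gene's sets in that alternative, 6 genes were higher at 6 h under all alternatives but 1. These were 6 of 6 measured with the floor at the 60th percentile, 6 of 9 with no floor and 6 of 8 otherwise. Of all genes, between 46.5% (quantile normalization) and 56.3% (floor at the 60th percentile) were higher. Without _x_at and _s_at probe sets 5 genes were left and 4 of them were higher, where 55.3% of all genes were. There 1 gene (INSR, at 0.70) was 1.5-fold higher, and 10 of 11 probe sets were higher. FOXO1, IRS2 and TXNIP had no set under that alternative. ARRDC4 stayed lower where measured, between -0.39 and -0.28, and TXNIP between -0.10 and -0.06 on its brightest set. Both were unmeasured with the floor at the 60th percentile. Probe sets that were higher numbered 20 of 23 with the floor at the 40th percentile, 15 of 15 at the 60th, 25 of 29 with no floor and 18 of 21 with quantile normalization, and 1 set was 1.5-fold apart in each of these. With no floor PDK4 sets ran between -0.14 and 0.07. No paired analysis was possible because each group has 1 array, and for the same reason no replicate could be left out. Distance from the floor limits FOXO1, TXNIP and ARRDC4, whose measured sets lay at 1.02 to 1.95 times the floor, while the other sets of FOXO1 and TXNIP were below it.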
